A study of Mus musculus with 9 samples.

Results

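RNA polymerase I (Pol I) and RNA polymerase III (Pol III) machinery was followed here as 39 genes: the subunits of both enzymes, the factors that load them on their genes, and Maf1. They were chosen by symbol for their function, with no measured value in the rule, though earlier results of these data were known. All 39 were found among the 53380 rows of the gene tables, and all 39 passed the count filter that left 14098 genes to test. By role they were 6 subunits particular to Pol I, 6 Pol I initiation factors, 2 subunits shared by Pol I and Pol III, 5 subunits shared by all 3 nuclear polymerases, 9 subunits particular to Pol III, 7 genes of TFIIIA and TFIIIC, 3 genes of TFIIIB, and Maf1, which represses Pol III. Pol I copies the ribosomal DNA repeats in the nucleolus into the precursor of the large ribosomal RNAs, and Pol III makes the 5S ribosomal RNA, the transfer RNAs and other short RNAs. Both enzymes are built round catalytic cores related to that of RNA polymerase II (Pol II), which makes messenger RNA, and each adds subunits of its own. Growing cells and leukaemias need much of their output for ribosomes and translation, and MYC is known to act on both systems.

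The cells were T-ALL, a leukaemia of T cell precursors, from tumours that arose in mice of the genotype EμSRα-tTA/tet-O-MYC on the FVB/N strain, which carry a tetracycline transactivator driven in lymphoid cells and a human MYC transgene that doxycycline switches off. Cells were treated in culture and harvested 48 hours after treatment. MYC on cells were mock treated, MYC intermediate cells received doxycycline at 20 pg/mL, and MYC off cells received it at 500 pg/mL. There were 3 libraries of polyadenylated RNA per group, all 9 from cells of the same transgenic origin. The labels do not say whether the libraries of a group came from separate cultures, so the spread behind each p-value is that between these libraries and may be technical, and no group controls for doxycycline itself in cells without the transgene.

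Totals ran from 18705516 to 39678799 counts per library, and between libraries of the same group Pearson's r over log CPM was 0.991 to 0.995, a description across genes of 1 library pair at a time. The human transgene had 1340, 1190 and 1250 CPM (counts scaled to the library total) at MYC on, 427.8, 414.1 and 382.9 CPM at MYC intermediate, and 4.083, 4.01 and 3.262 CPM at MYC off, so every library followed its label. The endogenous Myc gene had 0 counts in all 9 libraries, which allows up to 0.0756 to 0.16 CPM (3 counts in a library, covering counting error only). The 7 T cell markers (such as Cd3e, Lck and Trac) were all detected, and their summed level was 6078 to 6264 CPM at MYC off, 4617 to 4783 CPM at MYC intermediate and 2685 to 2778 CPM at MYC on. Of 5 B cell markers 4 had 0 counts in every library, the summed erythroid markers stayed at or under 0.102 CPM, and the myeloid markers Lyz2 and Adgre1 had 0 counts while the summed myeloid list ran from 26.6 to 43.6 CPM. The detected myeloid markers went opposite ways at MYC off against MYC on, Itgam up (log2 fold change 2.46 ± 0.13, SE) and Csf1r down (−0.38 ± 0.08). The part of these marker changes in the results below was not tested.

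Most of the machinery was lower without MYC. At MYC off against MYC on, 26 of the 39 genes fell, 3 rose and 10 were not called (edgeR, adjusted p under 0.01), where 27.4% of all tested genes fell and 27.5% rose. The median log2 fold change was −0.65 over the 39 genes and 0.03 over all tested genes. At MYC intermediate against MYC on, 20 fell and 2 rose, against 17.2% and 17.4% of all tested genes, with a median of −0.28. At MYC off against MYC intermediate, 19 fell and 0 rose, against 14.7% and 9.95% of all tested genes, with a median of −0.33. The count of 0 was by edgeR; 2 genes were higher at an unadjusted p under 0.05, and DESeq2 also called 0. Counts are relative to the library total, so fewer cells of a type and less RNA per cell cannot be told apart. A change in total RNA per cell would not show in them, so the falls and rises given here are not amounts per cell.

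**Figure D1:**
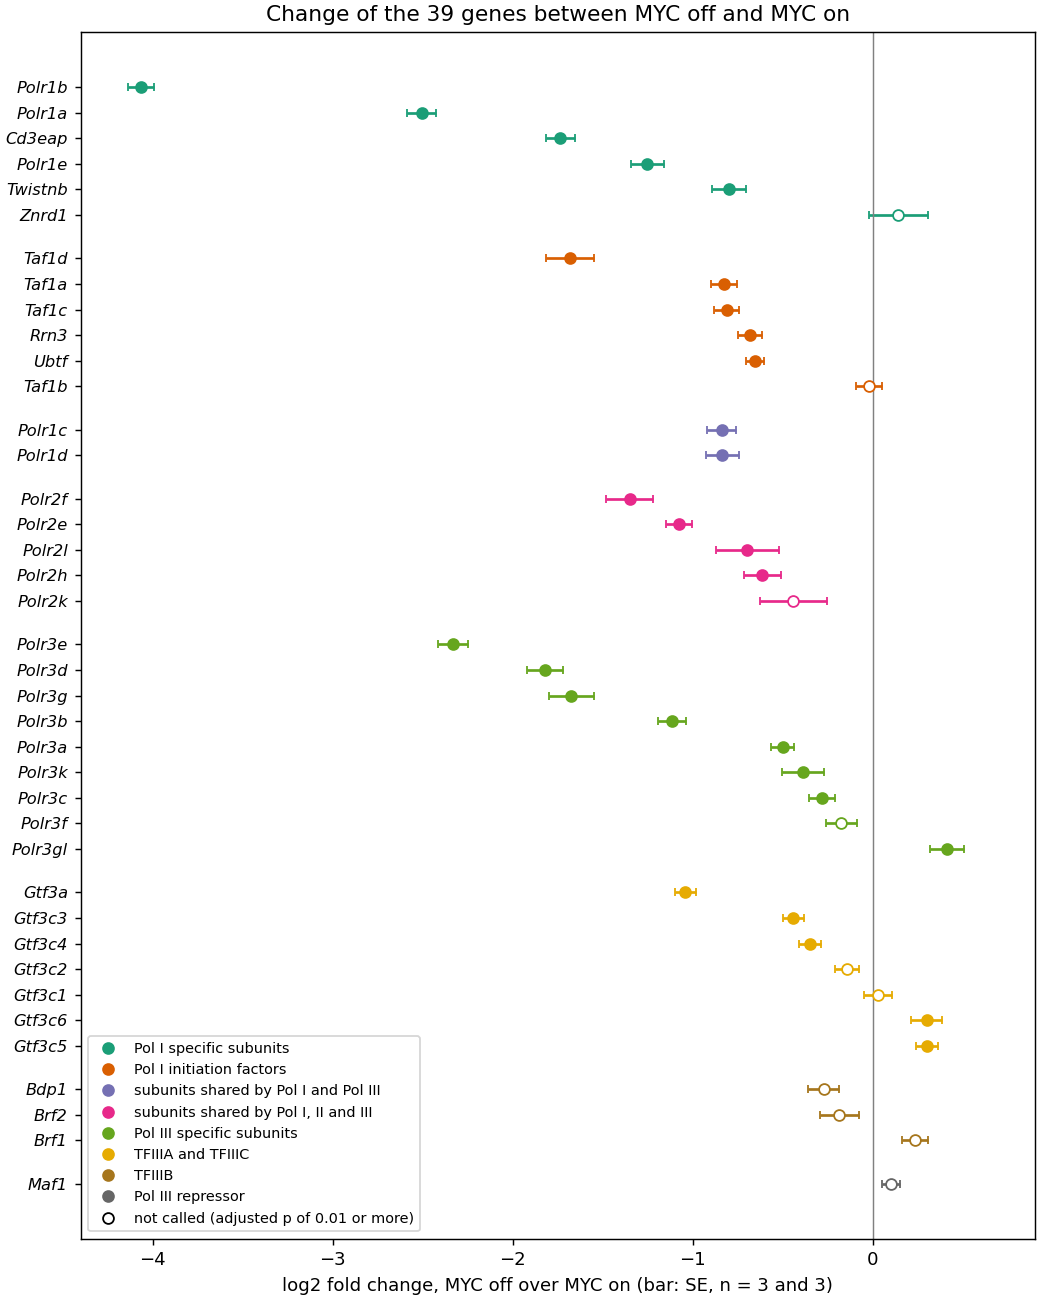
Log2 fold change of each of the 39 genes at MYC off over MYC on (x axis; 0 is no change), 1 row per gene, grouped and coloured by role; bars are the standard error of the fit with 3 libraries per group and open points were not called. Polr1b at −4.07 stands farthest to the left, and the TFIIIB genes and Maf1 lie near 0.

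The subunits particular to Pol I had the lowest median of the role groups, a log2 fold change of −1.49 at MYC off against MYC on. Of the 6, 5 were lower, where 27.4% of all tested genes were. Polr1b encodes the second largest subunit, which forms the catalytic centre together with the largest one. It had 196.5, 194 and 205.5 CPM at MYC on, 81.8, 85.5 and 80.02 CPM at MYC intermediate, and 11.25, 11.4 and 12.95 CPM at MYC off. The 3 groups did not overlap, and the libraries within a group lay close together. Its log2 fold change at MYC off against MYC on was −4.07 ± 0.07 (SE of the fit, n = 3 each, as after every log2 fold change here), a 16.7-fold fall. It ranked at 39 from the lowest of the 14098 genes tested.

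Polr1a, the largest subunit, with the catalytic magnesium site, had 172, 205.2 and 197.9 CPM at MYC on, 93.2, 98.9 and 90.95 CPM at MYC intermediate, and 33.5, 30.8 and 37.02 CPM at MYC off. Here too the groups were apart, with a log2 fold change of −2.50 ± 0.08. Cd3eap and Polr1e encode a heterodimer that sits on the core and helps initiation and elongation. Cd3eap had 42.55, 37.5 and 39.4 CPM at MYC on, 25.9, 26.4 and 26.45 CPM at MYC intermediate, and 11.9, 11.7 and 12.3 CPM at MYC off, a log2 fold change of −1.73 ± 0.08 at MYC off. Polr1e had 39.3, 42.6 and 39.9 CPM at MYC on, 24.4, 26.7 and 29.5 CPM at MYC intermediate, and 15.9, 18.5 and 16.9 CPM at MYC off, a log2 fold change of −1.25 ± 0.09 at MYC off. Both genes of the dimer were thus lower at each step, with no overlap between libraries. Cd3eap shares 4.25% of its exon bases with Ercc1 on the opposite strand, whose own log2 fold change was −0.07 ± 0.08.

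Twistnb, whose product forms the stalk by which Pol I meets its initiation factor Rrn3, fell less, with 44.9, 44.6 and 45.5 CPM at MYC on, 39.7, 37.99 and 33.2 CPM at MYC intermediate, and 29.3, 24.5 and 23.65 CPM at MYC off and a log2 fold change of −0.80 ± 0.09 at MYC off. Znrd1, a small zinc ribbon subunit for cleaving the nascent RNA, was the exception. It had 10.5, 9.06 and 10.2 CPM at MYC on, 13.7, 10.6 and 7.67 CPM at MYC intermediate, and 11.7, 11.1 and 10.1 CPM at MYC off, and the groups overlapped (log2 fold change 0.14 ± 0.16). Znrd1 also had the lowest CPM of the 6 and a larger standard error than the other 5, so a modest change was not detectable at this depth.

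**Figure D2:**
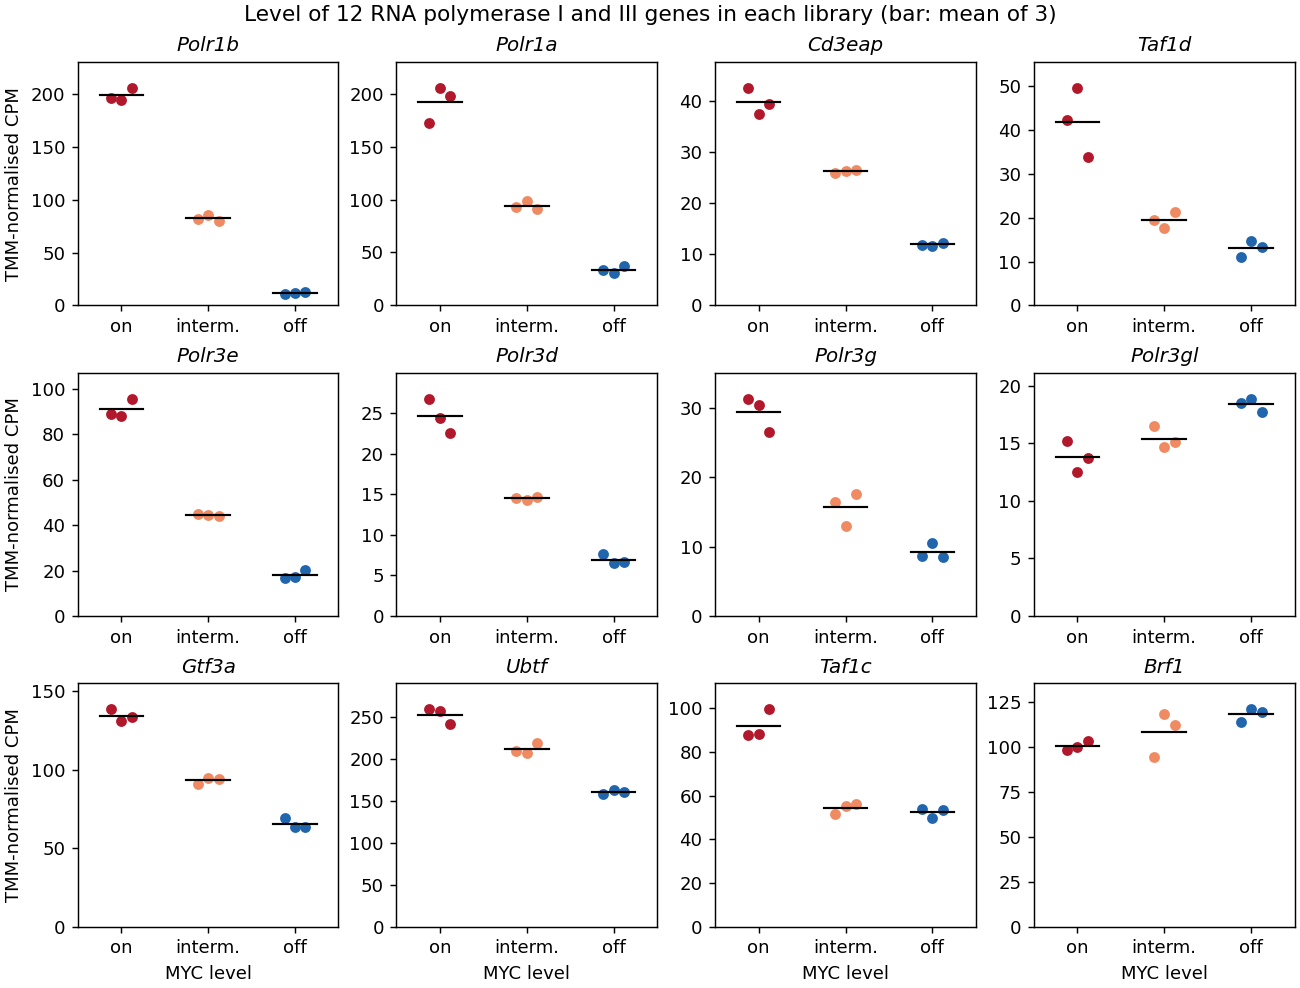
TMM-normalised CPM (y axis, from 0) of 12 of the genes in each of the 9 libraries, by MYC level (x axis: on, intermediate, off); each point is a library and each bar the mean of 3. Polr1b fell to between 11.25 and 12.95 CPM at MYC off, Polr3gl rose, and Brf1 overlapped between MYC intermediate and both other groups.

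Of the 6 Pol I initiation factors, 5 were lower at MYC off than at MYC on, where 27.4% of all tested genes were. The median of the 6 was −0.75. Taf1d, a part of the SL1 complex that holds Pol I at the ribosomal DNA promoter, changed most. It had 42.2, 49.5 and 33.9 CPM at MYC on, 19.55, 17.7 and 21.2 CPM at MYC intermediate, and 11.1, 14.8 and 13.3 CPM at MYC off, a log2 fold change of −1.68 ± 0.14. Its MYC on libraries spread widely, yet the lowest of them was above every other library. Taf1d hosts several small nucleolar RNAs within its annotated exons, and those overlapping genes had 0 counts. How reads in shared bases were assigned was not known here, so these counts do not show that Taf1d holds none of their reads. Cep295 and 4931406C07Rik share 0.86% and 2.63% of the Taf1d exon bases on the opposite strand. They had 21342 and 1109 counts over the 9 libraries.

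The other SL1 genes split. Taf1a had 39.6, 39.4 and 36.7 CPM at MYC on, 26.3, 28.1 and 26.8 CPM at MYC intermediate, and 21.55, 21.6 and 22.1 CPM at MYC off (−0.82 ± 0.07 at MYC off on the log2 scale). Taf1c had 88, 88.35 and 99.5 CPM at MYC on, 51.4, 55.5 and 56.1 CPM at MYC intermediate, and 53.9, 49.7 and 53.7 CPM at MYC off, so that MYC intermediate and MYC off overlapped while both lay below MYC on (−0.81 ± 0.07 at MYC off). Taf1c shares 16.7% of its exon bases with Dnaaf1 on the opposite strand, and Dnaaf1 had a log2 fold change of −0.96 ± 0.09. The kit does not mark the strand, so reads of such a pair cannot be told apart in the shared bases. Taf1b had 51.04, 51.2 and 44.7 CPM at MYC on, 48.5, 48.7 and 52.1 CPM at MYC intermediate, and 48.5, 49.7 and 46.5 CPM at MYC off, with overlap between all groups (−0.02 ± 0.07).

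Rrn3, which makes Pol I competent to start and links it to growth signals, had 104.6, 114.9 and 102.1 CPM at MYC on, 94, 82.1 and 89.3 CPM at MYC intermediate, and 68.1, 67.2 and 65.1 CPM at MYC off. Its log2 fold change was −0.68 ± 0.07 at MYC off. Ubtf, the HMG box protein that coats active ribosomal DNA, had the highest CPM of the 6 factors, with 259.5, 257.1 and 242.1 CPM at MYC on, 210.3, 207.3 and 219.8 CPM at MYC intermediate, and 158.2, 163.2 and 160.9 CPM at MYC off. Its log2 fold change was −0.65 ± 0.05 at MYC off, with no overlap between groups. Rrn3 and Ubtf were each lower at MYC off than at MYC intermediate as well, with log2 fold changes of −0.41 ± 0.07 and −0.40 ± 0.05.

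The subunits used by more than 1 polymerase were lower too. Polr1c and Polr1d form the assembly dimer of Pol I and Pol III. Polr1c had 40.3, 35.9 and 39.3 CPM at MYC on, 24.99, 26.6 and 27.2 CPM at MYC intermediate, and 21.6, 22.4 and 20.6 CPM at MYC off. Polr1d had 47, 46.4 and 43.97 CPM at MYC on, 39.9, 34.8 and 30.7 CPM at MYC intermediate, and 27.1, 25.3 and 24.5 CPM at MYC off. Their log2 fold changes at MYC off were −0.84 ± 0.08 and −0.84 ± 0.09, close to each other. The further fall of Polr1c at MYC off against MYC intermediate (−0.29 ± 0.08) was called at an adjusted p of 0.00979 by edgeR and was not called in 14 of 17 alternative settings.

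Of the 5 subunits that Pol I, Pol II and Pol III share, 4 fell at MYC off against MYC on, where 27.4% of all tested genes did. Polr2f, which ties the clamp to the core, had 46.8, 44.3 and 45.6 CPM at MYC on, 36.8, 32.7 and 25.8 CPM at MYC intermediate, and 21.6, 16.1 and 15.8 CPM at MYC off (−1.35 ± 0.13 on the log2 scale). Polr2e, which sits in the jaw of the enzymes, had 114.1, 103 and 120.7 CPM at MYC on, 74.8, 80.4 and 76.9 CPM at MYC intermediate, and 57.4, 51.1 and 51.9 CPM at MYC off (−1.07 ± 0.07). In both genes MYC off lay below MYC on in every library. On the opposite strand, 1700088E04Rik shares 9.44% of the exon bases of Polr2f in GENCODE M21. Those total 2595 bases, against a deposited length of 543, so the share in the counted exons was not known. Polr2h fell by 0.61 ± 0.10 and Polr2l by 0.70 ± 0.18 on the log2 scale (SE, n = 3 each). Polr2l was not called without MYC on replicate 3 (adjusted p = 0.0246) or without MYC off replicate 2 (adjusted p = 0.0138, edgeR). Polr2l also has a stretch of 382 bases that is 99.7% identical to Usp50, so its count may include reads of that gene. Polr2k, which like Polr2l is a small zinc-binding subunit, had 18.8, 17.3 and 17.7 CPM at MYC on, 27.4, 16.1 and 13.9 CPM at MYC intermediate, and 14.7, 12.7 and 12.2 CPM at MYC off, and its log2 fold change of −0.44 ± 0.19 was not called (edgeR, adjusted p = 0.051). With the replicate number as a block, Polr2k was called (log2 fold change −0.46, adjusted p = 0.00737). Some other settings also called Polr2k, such as only the 6 libraries compared (edgeR, adjusted p = 0.000513). None of these transcripts can be assigned to 1 of the 3 enzymes. Polr2h, Polr2k, Taf1d and Gtf3c3 have pseudogenes over 95% identical in part, which held at most 44 counts over the 9 libraries, as did the partial copy of Polr3a and the pseudogenes of Polr2l. The counts of Gm8670, which is 97.8% identical to Twistnb over 739 bases, were not analysed here.

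Among the 9 subunits particular to Pol III, 7 were lower and 1 was higher at MYC off than at MYC on. Of all tested genes, 27.4% were lower and 27.5% higher. The median of the 9 was −0.50. The largest falls were in Polr3e and Polr3d, which form a dimer on the core that is the counterpart of the Pol I dimer of Polr1e and Cd3eap. Polr3e had 89.05, 88.25 and 95.6 CPM at MYC on, 44.8, 44.6 and 43.9 CPM at MYC intermediate, and 16.6, 17.3 and 20.4 CPM at MYC off, a log2 fold change of −2.33 ± 0.08. Polr3d had 26.7, 24.4 and 22.6 CPM at MYC on, 14.6, 14.3 and 14.6 CPM at MYC intermediate, and 7.58, 6.515 and 6.67 CPM at MYC off, a log2 fold change of −1.82 ± 0.10. In both genes each step down in MYC lowered every library below those of the step before.

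The catalytic subunits of Pol III moved less than those of Pol I. Polr3b, the second largest subunit, had 75.5, 77.9 and 79.1 CPM at MYC on, 49.2, 44.97 and 53.1 CPM at MYC intermediate, and 33.5, 34.7 and 39.3 CPM at MYC off (−1.11 ± 0.08), set beside −4.07 ± 0.07 for its Pol I counterpart Polr1b. Polr3a, the largest subunit, had 85.6, 89.1 and 89.15 CPM at MYC on, 68.5, 76.3 and 73.3 CPM at MYC intermediate, and 59.2, 62.7 and 64.8 CPM at MYC off (−0.50 ± 0.06), beside −2.50 ± 0.08 for Polr1a. These differences between genes are described and were not tested. Polr3k, the counterpart of Znrd1, had 79.8, 75.4 and 81.95 CPM at MYC on, 93.6, 72.2 and 62.2 CPM at MYC intermediate, and 67.55, 58.3 and 55.5 CPM at MYC off and fell by 0.39 ± 0.12 on the log2 scale (SE). That call was lost in 7 of 17 alternative settings.

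Polr3c, Polr3f and either Polr3g or Polr3gl make up a trimer that contacts TFIIIB and opens the promoter. Polr3c fell by 0.28 ± 0.07 (SE) and lost its call in 4 of 17 alternative settings, each without 1 library, and Polr3f had a log2 fold change of −0.17 ± 0.09. The alternative members of the trimer went opposite ways. Polr3g, known in human cells for high levels in stem cells and transformed cells, had 31.3, 30.4 and 26.5 CPM at MYC on, 16.5, 13 and 17.55 CPM at MYC intermediate, and 8.62, 10.5 and 8.55 CPM at MYC off, a log2 fold change of −1.67 ± 0.12. Polr3gl, the form most tissues use, had 15.2, 12.5 and 13.7 CPM at MYC on, 16.5, 14.6 and 15.1 CPM at MYC intermediate, and 18.5, 18.9 and 17.7 CPM at MYC off, a log2 fold change of 0.41 ± 0.10. Polr3gl overlapped between MYC intermediate and MYC on, and its rise at MYC off was not called without MYC on replicate 2 (adjusted p = 0.0103, edgeR).

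As counts per kilobase, the ratio of Polr3g to Polr3gl was 0.837, 0.985 and 0.785 at MYC on, 0.406, 0.36 and 0.472 at MYC intermediate, and 0.189, 0.226 and 0.195 at MYC off. Per kilobase, the pair were near parity at MYC on, and at MYC off Polr3gl was in clear excess in every library. The lengths used, 3936 bases for Polr3g and 1597 for Polr3gl, cover all annotated exons. The level of the ratio depends on them, while its change between groups does not. By mean CPM, Polr3g had 29.39 and Polr3gl 13.79 at MYC on, and 9.226 and 18.38 at MYC off. The mean ratio was 0.203 ± 0.0199 at MYC off and 0.869 ± 0.104 at MYC on (SD, n = 3 each), a log2 difference of −2.09. It was 0.413 ± 0.056 at MYC intermediate, a log2 difference of −1.08 from MYC on. Each of the 3 comparisons of groups gave an exact two-sided permutation p of 0.1, the smallest that 3 libraries against 3 allow, with no overlap between groups.

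**Figure D3:**
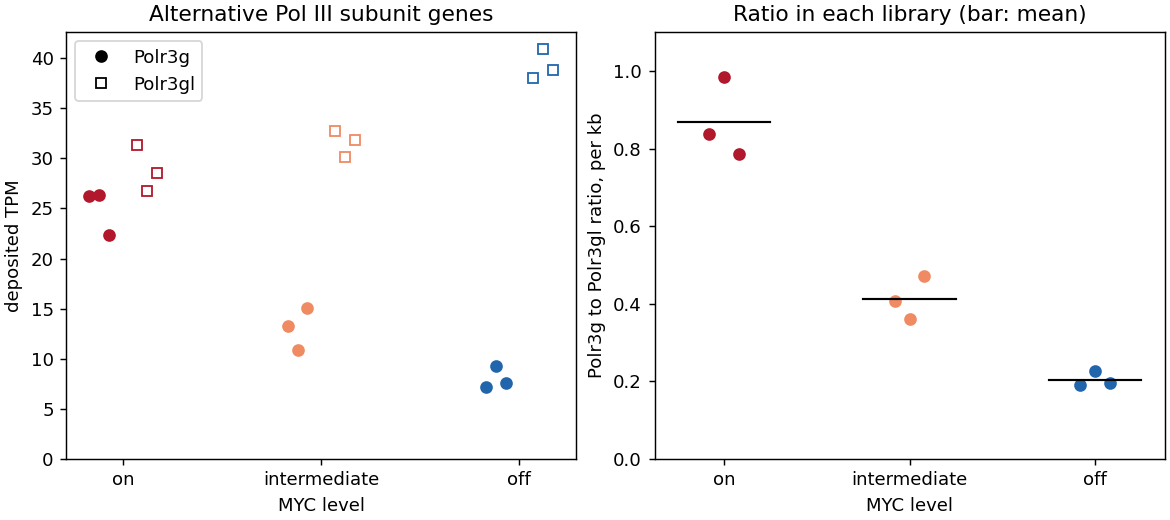
Left, deposited TPM of Polr3g (filled circles) and Polr3gl (open squares) in each library by MYC level; right, the ratio of Polr3g to Polr3gl per kilobase in each library, with the mean of 3 as a bar. The ratio lay between 0.785 and 0.985 at MYC on and between 0.189 and 0.226 at MYC off.

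Of the 10 genes for TFIIIA, TFIIIC and TFIIIB, only Gtf3a changed by more than 0.5 on the log2 scale. Gtf3a encodes TFIIIA, the zinc finger protein that binds the 5S ribosomal RNA gene. It had 138.2, 130.8 and 133.7 CPM at MYC on, 90.75, 94.65 and 94.1 CPM at MYC intermediate, and 69.1, 63.1 and 63.5 CPM at MYC off, a log2 fold change of −1.04 ± 0.06. However, 59.1% of its exon bases are shared with Mtif3 on the opposite strand, and Mtif3 had a log2 fold change of −0.89 ± 0.06, so the fall of Gtf3a cannot be told apart from that of Mtif3 in the shared bases.

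TFIIIC, the 6-subunit complex that reads the internal promoter of transfer RNA genes, was mixed. At MYC off, Gtf3c3 fell by 0.44 ± 0.06 and Gtf3c4 by 0.35 ± 0.06 on the log2 scale, while Gtf3c5 rose by 0.30 ± 0.06 and Gtf3c6 by 0.30 ± 0.08 (SE, n = 3 each). Gtf3c5 had 86.4, 82.3 and 86.8 CPM at MYC on, 98.1, 101.4 and 103.4 CPM at MYC intermediate, and 113.2, 101.4 and 100.5 CPM at MYC off, with MYC on below all other libraries. Gtf3c6 had 36.8, 33.3 and 37.1 CPM at MYC on, 49.9, 41.01 and 44.1 CPM at MYC intermediate, and 46.3, 42.5 and 43.2 CPM at MYC off, again with MYC on lowest and the other groups overlapping. The rise of Gtf3c6 at MYC off was lost whichever of the 6 libraries of MYC off and MYC on was left out. Gtf3c1, the largest subunit, had 180.8, 189.1 and 224.8 CPM at MYC on, 202.5, 208 and 193.5 CPM at MYC intermediate, and 196.4, 192.3 and 219.9 CPM at MYC off (0.03 ± 0.08), and Gtf3c2 had a log2 fold change of −0.14 ± 0.07. Gtf3c2 shares 38.9% of its exon bases with Gm29609 on the same strand. TFIIIA and TFIIIC together had a median of −0.14, with 3 of 7 lower and 2 higher, where 27.4% and 27.5% of all tested genes were.

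TFIIIB, which places Pol III at the start site, had 0 of 3 genes called by edgeR in any of the 3 comparisons. Among all tested genes, 27.4% fell and 27.5% rose at MYC off against MYC on. These shares were 17.2% and 17.4% at MYC intermediate against MYC on, and 14.7% and 9.95% at MYC off against MYC intermediate. With only 3 genes, a count of 0 does not set TFIIIB apart from other genes. At MYC off against MYC on, 1 TFIIIB gene was lower and 1 higher at an unadjusted p under 0.05, and DESeq2 called 1 lower. In the other comparisons both counts were 0. Brf1, the subunit used at transfer RNA and 5S genes, had 98.2, 100.2 and 103.6 CPM at MYC on, 94.8, 118.6 and 112.6 CPM at MYC intermediate, and 114.3, 121.1 and 119.9 CPM at MYC off (0.23 ± 0.07, edgeR adjusted p = 0.0111). Bdp1, common to all TFIIIB forms, had 25.99, 29.5 and 27.4 CPM at MYC on, 26.5, 26 and 24.2 CPM at MYC intermediate, and 20.9, 24.4 and 23.5 CPM at MYC off (−0.27 ± 0.09, edgeR adjusted p = 0.0124). With the replicate number as a block, both were called, Brf1 as higher (adjusted p = 0.00378) and Bdp1 as lower (adjusted p = 0.00963). Some other settings also called both, such as only the 6 libraries compared (edgeR, adjusted p of 0.00345 and 0.00819). In both, MYC off and MYC on did not overlap. Brf1 shares 6.83% of its exon bases with 9230104M06Rik on the opposite strand. Brf2, the subunit used at genes such as U6, had 12.6, 12.03 and 12.4 CPM at MYC on, 10.8, 13.2 and 11.3 CPM at MYC intermediate, and 11.4, 11.3 and 9.9 CPM at MYC off (−0.18 ± 0.11). Maf1, the repressor that holds Pol III back when nutrients or growth signals fail, had 271.6, 271.9 and 280.3 CPM at MYC on, 269, 259.4 and 266.1 CPM at MYC intermediate, and 303.7, 289.4 and 291.5 CPM at MYC off. Its MYC off libraries lay above the others by a small amount, with a log2 fold change of 0.10 ± 0.05 that was not called.

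The middle dose gives the shape of the fall between the ends. For the 21 genes that fell by at least 0.5 on the log2 scale at MYC off, the position of MYC intermediate (on the log2 scale, with MYC on at 0 and MYC off at 1) had a median of 0.45, with quartiles of 0.38 and 0.54. Over all 2843 tested genes that fell by as much the median was 0.49, with quartiles of 0.41 and 0.61, and over the 2645 genes that rose by at least 0.5 it was 0.64. The transgene itself had a log2 fold change of −1.61 at MYC intermediate and −8.41 at MYC off, both against MYC on.

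Whether the middle dose lay halfway was tested by setting its log2 level against the mean of the log2 levels of the other groups. This contrast called 2 of the 39 genes, Polr1b as above this midpoint and Taf1c as below it, where 1.7% of all tested genes were above and 0.184% below. Polr1b differed from its midpoint by 0.76 ± 0.05 on the log2 scale (edgeR, adjusted p = 5.65e-07) and had a position of 0.31. On the log2 scale most of its fall came between MYC intermediate and MYC off, where its log2 fold change was −2.80 ± 0.07. In CPM the larger drop came first, with means of 198.7 at MYC on, 82.46 at MYC intermediate and 11.87 at MYC off. Taf1c differed from its midpoint by −0.35 ± 0.06 (adjusted p = 0.0035) and had a position of 0.94, with nearly all of its loss already present at MYC intermediate. Dnaaf1, with which Taf1c shares 16.7% of its exon bases, had log2 fold changes of −0.76 ± 0.09 at MYC intermediate and −0.96 ± 0.09 at MYC off. The part of Dnaaf1 reads in the Taf1c profile was not tested. The Taf1c call was lost without MYC intermediate replicate 1, without MYC intermediate replicate 2 and without MYC off replicate 3 (adjusted p of 0.0165, 0.0157 and 0.0107). Cd3eap, with a position of 0.35, was not called (0.27 ± 0.07, adjusted p = 0.0313), nor was Polr1a, with 0.41 (0.23 ± 0.07, adjusted p = 0.0599; SE for both).

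**Figure D4:**
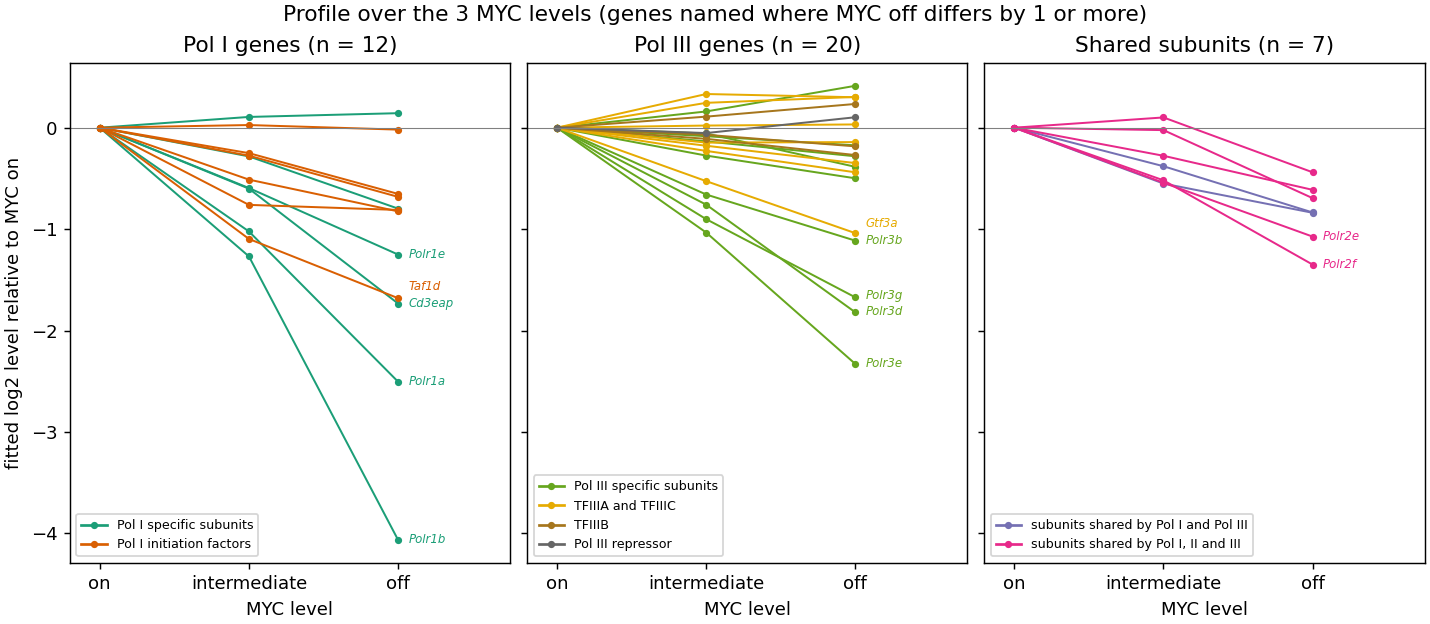
Fitted log2 level relative to MYC on (y axis) at MYC on, intermediate and off (x axis), 1 line per gene, in panels for 12 Pol I genes, 20 Pol III genes and 7 shared subunits; genes that differ by 1 or more at MYC off are named. Polr1b bends down after MYC intermediate, and Taf1c is flat after it.

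Levels can be set between genes only per length, as the deposited TPM, which scale counts for gene length and library total. At MYC off the order of the Pol I subunits was not that at MYC on. Polr1b had 6.98 ± 0.73 TPM at MYC off and 115 ± 2.96 TPM at MYC on (SD, n = 3 each), the lowest of the 6 Pol I subunits at MYC off and the highest at MYC on. Polr1a had 9.70 ± 1.04 TPM at MYC off and 54.1 ± 5.72 TPM at MYC on. Znrd1, at 45.5 ± 2.31 TPM at MYC off and 40.5 ± 2.34 TPM at MYC on, was the highest of the 6 at MYC off. Among the Pol III subunits, Polr3c and Polr3k were the highest in both groups, with means of 73.4 and 65.8 TPM at MYC off and 87.6 and 84.7 TPM at MYC on. Polr3e had 12.3 ± 1.70 TPM at MYC off and 60.6 ± 2.41 TPM at MYC on, so that its place among the 9 also dropped.

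**Figure D5:**
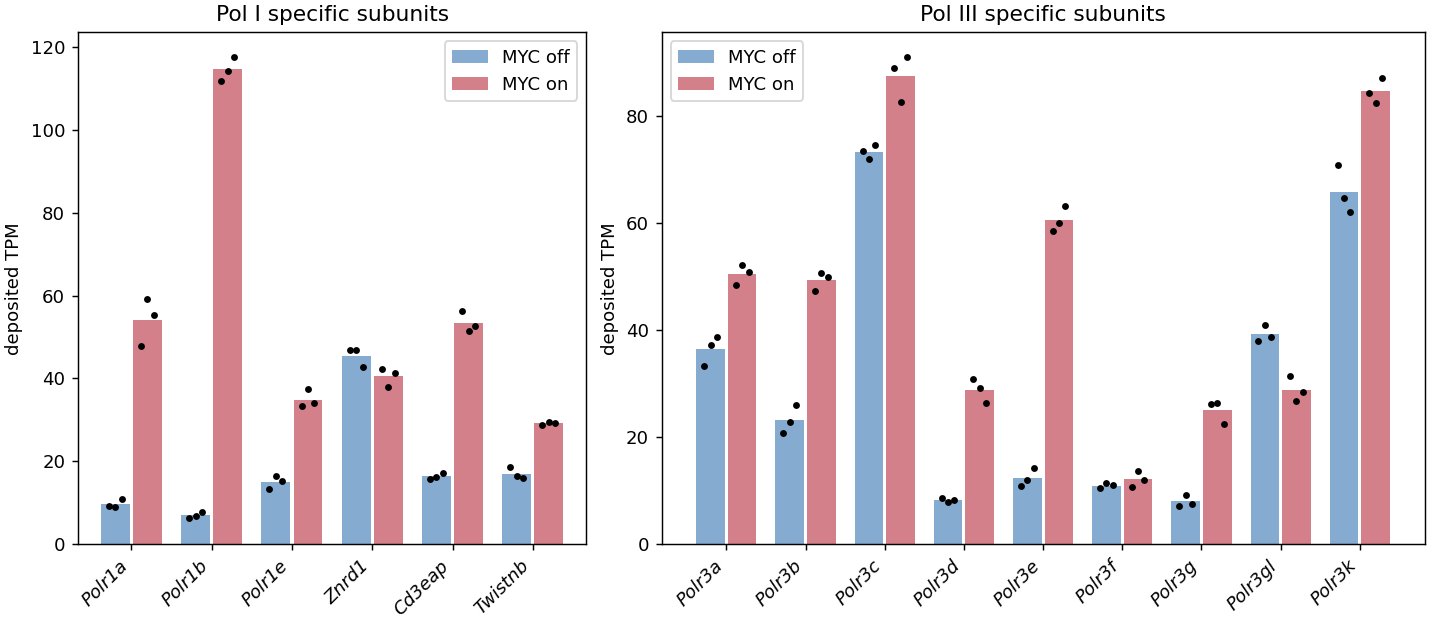
Deposited TPM (y axis, from 0) of the 6 Pol I and 9 Pol III subunit genes at MYC off and MYC on; bars are means of 3 libraries and points are libraries. Polr1b is the tallest Pol I bar at MYC on, at 115 TPM, and the shortest at MYC off, at 6.98 TPM.

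Summed over the group, the 6 Pol I subunits had 111 ± 1.07 TPM at MYC off and 327 ± 5.56 TPM at MYC on, which is 33.8% of the MYC on level. The 9 Pol III subunits had 278 ± 3.87 TPM at MYC off and 428 ± 3.78 TPM at MYC on, 64.9% of the MYC on level. TFIIIA and TFIIIC together kept 81.7%, and TFIIIB had 70.5 ± 4.11 TPM at MYC off and 64.6 ± 1.90 TPM at MYC on. All 39 genes summed to 1952 ± 12.1 TPM at MYC off and 2865 ± 14.7 TPM at MYC on (SD, n = 3 each throughout). Sums follow their most abundant members, such as Polr2f, whose length in the files is 543 bases against 2595 in GENCODE M21, so that its TPM compares poorly with that of other genes.

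At MYC off against MYC on, 27.4% of all tested genes fell and 27.5% rose. Lists of related machinery outside the 39 genes had medians nearer to 0 than the −0.65 of all 39. Within the 39, the 12 genes particular to Pol I had a median of −0.82. The 19 particular to Pol III, without Maf1, had −0.28, which lay within the range of those outside lists. Of 7 subunits particular to Pol II, 4 fell and 1 rose, with a median of −0.27. Polr2a, its largest subunit, rose by 0.63 ± 0.07 on the log2 scale (SE), and Polr2j fell by 0.63 ± 0.10. Of 17 general factors of Pol II, 9 fell and 3 rose, with a median of −0.34; Gtf2h3 had −0.79 ± 0.06 and Gtf2h2 −0.73 ± 0.08 (SE). The summed TPM of these Pol II lists at MYC off was 88% and 96.9% of that at MYC on. Of 4 genes for mitochondrial transcription 2 fell, the polymerase Polrmt by 0.52 ± 0.07 and the factor Tfb2m by 0.84 ± 0.09. The median of the 4 was −0.42. The medians are descriptions of each list, and no difference between lists was tested.

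Among 16 other genes of Pol I and Pol III transcription, 6 fell and 4 rose at MYC off, where 27.4% and 27.5% of all tested genes did. Nolc1, a nucleolar phosphoprotein, had a log2 fold change of −2.38 ± 0.07. Tcof1, the treacle protein that Pol I transcription needs, had −1.13 ± 0.06. In the other direction, Baz2a, a part of the complex that silences ribosomal DNA, had 0.97 ± 0.09, and was the largest rise of these 16. Tbp, the subunit that SL1 and TFIIIB share with the Pol II factors, had −0.31 ± 0.06; it was named for that role after its value was seen. The products of Pol III could not be followed, because the libraries hold polyadenylated RNA: 8 Pol III transcripts such as Rn7sk summed to at most 0.706 CPM in any library.

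Promoter sequences are shown for the members with the largest called changes among those with a window, 4 lower and 2 higher at MYC off (Polr3d has none), because MYC and MAX bind the E-box, the letters CACGTG, which read the same on both strands. RefSeq windows (GRCm38.p6, 250 bases before the start site to 50 after) were found for 33 of the 39 genes. Of the 33, 7 (21.2%) held the letters, where 8.09% of 27025 genes did. Those 27025 are all genes with a window, expressed or not, whereas all 39 members passed the count filter. The share among tested genes was not analysed, so the 2 shares are of unlike sets. Each line gives 230 bases before the start site and 30 from it on, 5′ to 3′ on the gene's strand, in lower case with any E-box in capitals. RefSeq start sites can differ from those of GENCODE. The Gtf3c5 window lies within the gene as given by GENCODE M21, where it begins at base 28583751 of chr2 on the minus strand.
Polr1b, chr2:129100766-129101025, plus strand: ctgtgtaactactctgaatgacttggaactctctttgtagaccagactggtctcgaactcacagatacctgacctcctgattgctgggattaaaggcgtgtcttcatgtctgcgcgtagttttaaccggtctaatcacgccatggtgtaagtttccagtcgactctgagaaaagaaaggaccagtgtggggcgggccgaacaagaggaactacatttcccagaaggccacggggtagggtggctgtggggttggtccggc
Polr1a, chr6:71908823-71909082, plus strand: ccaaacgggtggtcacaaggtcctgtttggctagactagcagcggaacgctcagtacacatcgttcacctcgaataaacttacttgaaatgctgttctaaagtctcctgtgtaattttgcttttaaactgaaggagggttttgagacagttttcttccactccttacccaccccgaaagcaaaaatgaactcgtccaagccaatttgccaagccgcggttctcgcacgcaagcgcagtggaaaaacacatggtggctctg
Polr3e, chr7:120917548-120917807, plus strand: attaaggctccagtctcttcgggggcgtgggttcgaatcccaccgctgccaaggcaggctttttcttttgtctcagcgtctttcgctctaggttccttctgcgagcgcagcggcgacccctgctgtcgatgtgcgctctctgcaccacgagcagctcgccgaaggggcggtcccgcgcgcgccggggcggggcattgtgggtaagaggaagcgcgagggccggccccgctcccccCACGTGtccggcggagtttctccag
Cd3eap, chr7:19359454-19359713, minus strand: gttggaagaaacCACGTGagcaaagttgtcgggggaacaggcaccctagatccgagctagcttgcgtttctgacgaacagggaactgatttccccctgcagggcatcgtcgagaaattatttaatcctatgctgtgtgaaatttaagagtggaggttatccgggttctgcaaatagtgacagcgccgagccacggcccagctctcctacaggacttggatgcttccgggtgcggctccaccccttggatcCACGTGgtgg
Polr3gl, chr3:96594152-96594411, minus strand: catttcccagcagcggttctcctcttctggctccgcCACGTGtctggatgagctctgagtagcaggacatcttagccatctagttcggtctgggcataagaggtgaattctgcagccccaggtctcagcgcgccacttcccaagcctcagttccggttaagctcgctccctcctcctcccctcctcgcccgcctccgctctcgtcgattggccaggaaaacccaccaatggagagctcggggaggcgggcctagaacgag
Gtf3c5, chr2:28583250-28583509, minus strand: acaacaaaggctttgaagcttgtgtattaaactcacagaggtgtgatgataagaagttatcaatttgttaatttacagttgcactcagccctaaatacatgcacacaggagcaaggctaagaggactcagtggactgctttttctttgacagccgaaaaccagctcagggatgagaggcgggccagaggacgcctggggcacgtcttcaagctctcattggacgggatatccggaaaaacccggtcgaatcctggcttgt
The Polr3e window held an E-box beginning 5 bases after the start site, and that of Cd3eap held a pair, beginning 218 bases before and 20 bases after it. The Polr3gl window, of a gene that rose, held an E-box 194 bases before the start site. The windows of Polr1b and Polr1a, the genes of the 2 largest falls, held none, nor did that of Gtf3c5. The other members with the letters were Rrn3 (215 and 48 bases before the start site), Gtf3c6 (206 and 56 before), Polr3c (237 before) and Polr2h (23 after). Of the 7 members with an E-box, 5 fell and 2 rose at MYC off, with a median log2 fold change of −0.61. Of the 26 without, 19 fell, 1 rose and 6 were not called, with a median of −0.80. Among all tested genes 27.4% fell and 27.5% rose. A match is a description of the letters in this window, and its absence says nothing of sites elsewhere.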

How the data were processed

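Polyadenylated RNA of 9 libraries (3 each of MYC off, MYC intermediate and MYC on) was copied with oligo(dT) priming, without strand marks. Per the submitters' processing notes, the tools were STAR 2.5.4b, cutadapt 1.16 and featureCounts with genome build mm10. The annotation release and strand setting are not given in the sources used here. The authors deposited whole-number counts per gene, which the tests used, and TPM (scaled for gene length and library total) made from them, which served for levels between genes. The deposited FPKM, score and rank columns were not used. Per library the totals were 18705516 to 39678799 counts.

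Counts were fitted in R 4.3.3 with edgeR 4.0.16 (TMM scaling, default filter, quasi-likelihood F test, two-sided). The fit held all 9 libraries and a term for group only. Genes were called at a Benjamini-Hochberg adjusted p under 0.01 over the 14098 kept. CPM in the text are TMM-normalised unless they are of markers or the transgene. Log2 fold changes are the first group over the second. The fit was also tested on simulated data with known changes. The members and lists were chosen with earlier results of these data known. All 39 members are described, with up to 4 called genes of the largest change from each other list, and promoters of up to 4 members that fell and 2 that rose, from RefSeq (GRCm38.p6). A gene that this rule would name is not reported here. Proteins are not shown. GENCODE M21 gave positions and overlaps and matched 53274 identifiers.

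Same-numbered libraries of MYC off and MYC on deviated together, while the meaning of a number is not labelled. Their r of deviations from group means over 8835 genes was 0.43, 0.3 and 0.27. Unlike numbers of these groups gave −0.46 to 0.16. For MYC intermediate and MYC on the same-numbered values were 0.15, −0.22 and −0.19, and for MYC off and MYC intermediate 0.39, 0.017 and 0.088. Elsewhere unlike numbers reached as much, such as 0.45 for MYC intermediate replicate 2 and MYC on replicate 3. Whether the numbers mark a pairing thus cannot be told. A fit with the replicate block is given beside the calls it changes at MYC off against MYC on, and in the closing section for the others. Alternatives were DESeq2 1.42.0, its size factors, library size alone, other filters, counts thinned to 18705516 per library, only the libraries compared, and each library left out.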

Additional observations from a re-analysis of the deposited data

How the results depend on the processing

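Under 17 alternative settings, 24 of the 29 calls at MYC off against MYC on held in every one, as did 15 of 22 at MYC intermediate against MYC on and 15 of 19 at MYC off against MYC intermediate, and no called gene changed sign. The calls lost at MYC off against MYC on were those of Polr2l, Polr3c, Polr3k, Polr3gl and Gtf3c6. With the replicate block, 28 fell and 4 rose at MYC off against MYC on (26 and 3 without it). At MYC intermediate against MYC on, the block gave 21 lower and 2 higher (20 and 2 without it). At MYC off against MYC intermediate, the block gave 22 lower and 0 higher (19 and 0 without it). It also called Twistnb at MYC intermediate against MYC on (adjusted p = 0.00723, edgeR). At MYC off against MYC intermediate it called Polr2h (0.00596), Polr2k (0.00643), Polr3a (0.00704) and Polr3k (0.00802), and did not call Polr1c (0.011). Leaving out each library in turn gave 23 to 28 lower and 1 to 4 higher at MYC off against MYC on, the lowest count of higher genes without MYC on replicate 2. At MYC intermediate against MYC on it gave 16 to 20 lower and 0 to 2 higher. Both rises, Gtf3c5 and Gtf3c6, were lost without MYC on replicate 1 and without MYC on replicate 2. Without MYC intermediate replicate 1 only Gtf3c5 stayed called, and without MYC intermediate replicate 2 or 3 only Gtf3c6 did. At MYC off against MYC intermediate it gave 15 to 21 lower. Scaling by library size alone called 1 gene higher there, Maf1 (log2 fold change 0.20, adjusted p = 0.00275, edgeR) in place of 0. Members below the midpoint numbered 0 to 1 when a library was left out, and with no count filter 2 were above it, Polr1b and Polr1a (0.24, adjusted p = 0.00573). The causes were not tested.

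The log2 difference of the Polr3g to Polr3gl ratio at MYC off against MYC on lay between −2.17 and −2.0 when a library was left out. Depth limits the low genes: Znrd1, Polr2l and Brf2 had about 10 CPM, and changes smaller than their spread were not detectable. Without molecular tags the limits cover counting error only.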

Other observations

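The printed Polr3e window also holds the letters GGTTCGAATCC, a form of the B box that TFIIIC reads inside transfer RNA genes, beginning 201 bases before the start site. These letters, with any base allowed at the eighth, were searched on both strands after the window had been read. It was found in the windows of 15 of 27025 genes (0.0555%) and of 1 of the 33 members with a window. The match is a description of the letters, and no reads of a Pol III transcript there were measured.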
